A study of Mus musculus with 10 samples.

Results

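Cluster 10 of the colonic cells was a group of 109 epithelial-like cells with high levels of Aqp4, Gsdmc4, Cldn8, Scd2 and Hoxb13, and 103 of them came from mice treated with dextran sulfate sodium (DSS). These genes were not particular to it. Hoxb13, Gsdmc4 and Cldn8 were also high in DSS cells of cluster 7, and Aqp4, Gsdmc4 and Scd2 in normal cells of cluster 14. The members of cluster 10 were chosen by the cluster number in the cell annotation deposited by the authors, which names the cluster only by that number and the word other. They were 109 of the 3065 colonic cells kept by the authors and of the 25204 cells kept in the whole series. The DSS library supplied 103 of its 1933 kept cells (5.33%, Clopper-Pearson 95% interval 4.37 to 6.43%) and the library of normal colonic crypts supplied 6 of its 1132 (0.530%, interval 0.195 to 1.15%).

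The series consists of 10 droplet-based single-cell RNA-sequencing libraries from mice, 8 from small intestinal organoids and 2 from colonic crypts. The organoids were 3 libraries of ENR-organoids (passages 2, 7 and 3), 3 of Hyper-organoids, grown with a mix that includes the small molecules VPA and EPZ6438 (passages 1, 6 and 3), and 2 of -VE-organoids, grown in that mix without this pair (passages 1 and 6). The passage 3 libraries of both kinds came from primary crypts, and the other Hyper-organoids and the -VE-organoids from ENR-organoids. The normal group was 1 library of colonic crypts from normal mice, and the DSS group was 1 library of colonic crypts from mice given DSS in their drinking water. Strain, age, sex, the number of mice pooled and the day of collection are not given in the labels of either colonic library. Mice of the colitis model were female and 8 weeks old by the general description in the methods, which does not name this library. Each colonic group is therefore 1 sample without a replicate, no test was made, and every interval printed covers counting error only. Clusters were drawn by the authors from the genes of these same cells, so all values of the cluster against other cells are a description.

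DSS is a sulfated polysaccharide that damages the lining of the colon, and the epithelium then has to cover and rebuild the injured surface. In the healthy colon, stem cells at the crypt base give rise to proliferating progenitors, which move up the crypt and become absorptive colonocytes, mucus-secreting goblet cells, hormone-secreting enteroendocrine cells or chemosensory tuft cells. Colonocytes take up salt, water and short-chain fatty acids, and their gene expression changes both with height in the crypt and along the length of the colon. Hox genes record the second of these axes, with Hoxb13 used at its distal end.

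The 103 DSS cells of the cluster were deeply sampled, with a median of 25404 UMIs (unique molecular identifiers, 1 per captured transcript molecule) and 4835 genes per cell, a range of 1086 to 100041 UMIs, and 2718102 UMIs in all. Mitochondrial transcripts made up a median of 9.99% of UMIs, and 8 of the cells had under 1500 genes. The 6 normal cells had a median of 27094 UMIs. Levels are given as CPM, the UMIs of a gene summed over cells and scaled to a total of 1000000 UMIs.

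Several facts of the libraries touch every comparison between them. The files hold 4746 barcodes for DSS and 3627 for normal crypts, the authors kept 1933 and 1132, and their stated limits of 1500 genes and 25% mitochondrial reads would leave 1505 and 954 of all barcodes. Of the kept cells, 1400 and 841 lie within those limits. Kept barcodes shared by both libraries numbered 2, with 0 in cluster 10. The libraries also differed in sex-linked transcripts, a check made after values were seen. Xist, the RNA of the inactive X chromosome, had 9494 UMIs in 978 normal cells and 3 UMIs in the DSS library, whereas Eif2s3y from the Y chromosome had 2100 UMIs in the DSS library and 0 in the normal one. The transcripts of the DSS library thus go against female mice. Within the cluster, the 103 DSS cells held 0 Xist and 139 Eif2s3y UMIs, and the 6 normal cells held 63 and 0. DSS treatment, the library and the sex of the mice cannot be told apart in these data.

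The identity of the cluster was examined with marker lists for 28 cell types. All 12 epithelial markers had a UMI in at least 50% of the 103 DSS cells, among them Epcam (an adhesion molecule of epithelia) at 2165 CPM in 100% of cells and Krt8 (a keratin of simple epithelia) at 7491 CPM. Their summed level of 31282 CPM ranked 6 of the 19 clusters that had at least 20 cells in the DSS library. Pan-leukocyte markers summed to 8.09 CPM, with Coro1a and Arhgdib at 0, and Ptprc, which encodes the leukocyte antigen CD45, had a UMI in 2 of 103 cells (1.94%). T cell markers summed to 2.94 CPM, B cell markers to 0.368 CPM and fibroblast markers to 0.368 CPM, with 11 of 12 fibroblast genes at 0. Other blood cell lists had larger sums, each carried by 1 or a few members. The plasma cell list summed to 333 CPM, with Sdc1 at 166 and Xbp1 at 147 CPM, genes that epithelial cells also express, and with Mzb1, Ighm and Tnfrsf17 at 0. The monocyte or macrophage list summed to 87.6 CPM, of which Cd14 supplied 83.5 CPM, the dendritic list to 118 CPM, all of it Cd74, and the neutrophil list to 50.8 CPM, of which Ly6g supplied 30.9 CPM. The cells were thus epithelial-like by their markers.

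Among epithelial types the colonocyte list had the largest sum, 13604 CPM, of which Lypd8 supplied 10275 CPM. Lypd8, a secreted protein that holds bacteria away from the colonic surface, was found in 103 of 103 cells, with a median of 261 and a maximum of 927 UMIs per cell. The list was nevertheless uneven, as 9 of its 14 genes were present in at least 50% of cells. Guca2a (guanylin, a regulator of fluid secretion) reached 483 CPM and the phosphate transporter Slc20a1 reached 264 CPM, whereas Car4 (a membrane carbonic anhydrase) stood at 13.2 CPM and the water channel Aqp8 at 11.04 CPM. Against the other DSS cells, with 10 CPM added to both sides, 1 of 13 colonocyte genes tested (Slc20a1) was at least 2-fold higher. At least 2-fold lower were 6 of them (Car1, Car4, Aqp8, Krt20, Fabp2 and Mep1a), and the median log2 ratio was -0.95. Over all genes, 0.856% were higher and 4.35% lower. Those other cells include cluster 7, where the list summed to 45850 CPM. Slc20a1 was the only colonocyte gene among the 20 with the largest ratio to the other DSS cells. No cell type beyond epithelial-like is given here.

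Markers of the other epithelial lineages were low or uneven. The tuft list summed to 2.94 CPM with 9 of 12 genes at 0, and the enteroendocrine list to 17.7 CPM. Of the crypt base stem list, which summed to 193 CPM, Lgr5 and Ascl2 were at 0, which allows up to 1.10 CPM each. Proliferation genes summed to 254 CPM. The goblet list summed to 1460 CPM with 5 of 14 genes in at least 50% of cells, led by Agr2 (a folding factor of mucins that is also found outside goblet cells) at 676 CPM, while the mucin Muc2 had 123 CPM. The M cell list summed to 248 CPM, of which Ccl20 supplied 175 CPM, and its defining genes Gp2, Spib and Tnfaip2 were at 0. The erythroid list ranked 1 of 19 at 1245 CPM, nearly all of it the cytosolic carbonic anhydrase Car2 at 1244 CPM, which intestinal epithelium also expresses.

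**Figure D1:**
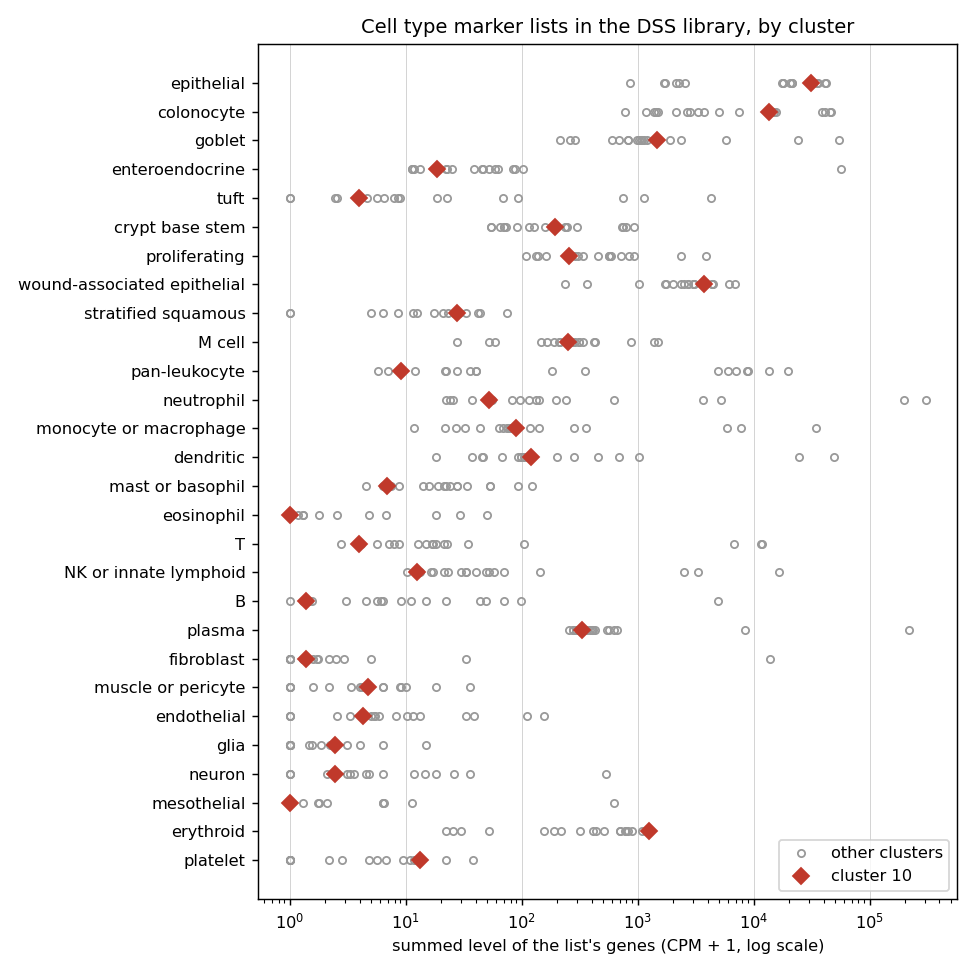
Summed level of each cell type marker list (horizontal axis, CPM + 1, log scale) in the 19 clusters of the DSS library, with cluster 10 as a red diamond and the other 18 as open circles. Cluster 10 sits among the high epithelial and colonocyte sums and near the low end of the leukocyte, fibroblast and endothelial lists.

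Against the other 1830 kept cells of the DSS library, 69 of 8060 genes with at least 10 CPM in either group (0.856%) were at least 2-fold higher in cluster 10 and 351 (4.35%) were at least 2-fold lower, with 10 CPM added to both sides. These counts depend on the setting, with 136 and 566 at a pseudocount of 1 CPM, 119 and 774 with the mean of per-cell CPM, and 122 lower among genes of at least 50 CPM. Log2 ratios below are on this scale, which understates the ratio of low genes. The median log2 ratio over all genes tested was -0.00. The 20 genes with the largest ratio are taken below by what their products are known to do.

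Aqp4, a water channel of the basolateral membrane, was at 855 CPM (exact Poisson 95% interval 820 to 890) against 180 CPM in the other DSS cells, a log2 ratio of 2.19. It had a UMI in 101 of 103 cells, with a median of 20 and a maximum of 71 UMIs per cell. The share was 43.4% in the other DSS cells and 4.04% in the leukocyte clusters, which had median depths of 2987 to 9283 UMIs. Leukocyte clusters here are the 6 in which over 50% of cells held a Ptprc UMI. They may hold other cells or doublets, as cluster 8 had Ptprc in 51.4% and Epcam in 37.6% of its DSS cells, and a cell of 55102 UMIs. Among the cells with at least 10000 UMIs, thinned to that number, the shares were 100% of cluster 10 and 55.3% of the other DSS cells. Thinning leaves out 13 of the 103 cells of cluster 10 and 840 of all 1933 DSS cells. Cldn8, a claudin that seals tight junctions of the distal colon, was at 175 against 38.5 CPM, and was present in 87 of 103 cells. The calcium-activated chloride channel Ano1 was at 122 against 35.8 CPM and Slc20a1 at 264 against 90.7 CPM. Beyond the leading genes, Slc5a8, a carrier of short-chain fatty acids, was at 358 against 142 CPM and the amino acid carrier Slc6a14 at 686 against 290 CPM. In the list of colonic ion and water transport genes, Aqp4 alone of 12 tested was at least 2-fold higher and 5 were at least 2-fold lower, namely Slc9a3, Slc12a2, Aqp8, Car1 and Car4. High levels of Aqp4 and Cldn8 thus went together with low levels of several other transport genes in these cells.

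The gasdermin gene Gsdmc4 was at 983 CPM (946 to 1021) against 252 CPM, a log2 ratio of 1.92, with UMIs in 102 of 103 cells. Gasdermins form membrane pores once cleaved. Its neighbours on chromosome 15 (GRCm38) were also higher, with Gsdmc2 at 316 against 152 CPM and Gsdmc3 at 108 against 46.9 CPM. Gsdmc2 lies at 63824346 to 63845177, Gsdmc3 at 63857724 to 63878558 and Gsdmc4 at 63891264 to 63912297, all on the minus strand. They are close paralogs, so the split of reads among them is uncertain.

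Of the metabolic genes, Cyp2c68, a cytochrome P450, had the largest ratio of all, at 135 CPM (121 to 149) against 19.8 CPM and a log2 ratio of 2.28. It belongs to a large family of similar genes, so its own share of the reads is uncertain. Scd2, a stearoyl-CoA desaturase, was at 885 against 263 CPM and was found in 100 of 103 cells. Ckmt1, a mitochondrial creatine kinase, was at 2456 against 874 CPM. Ggh (gamma-glutamyl hydrolase, 475 against 145 CPM), Gk (glycerol kinase, 101 against 27.6 CPM) and Cbr2 (a carbonyl reductase, 62.9 against 16.7 CPM) complete this group. Gm15401, annotated as an antisense RNA, was at 146 against 25.5 CPM, and its reads may not be separable from those of the gene it overlaps.

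The secreted proteins included the chemokine Ccl20, which attracts CCR6-bearing lymphocytes and dendritic cells, at 175 CPM (160 to 192) against 35.2 CPM, and the cytokine Il18 at 532 against 167 CPM. Il18 was even over the cells, with UMIs in 96.1% of them, whereas Ccl20 had a UMI in 54.4%, and in 47.8% after thinning, against 0.449% of the leukocyte cluster cells. Wfdc2, a protease inhibitor of mucosal surfaces, was at 833 against 261 CPM, the matrix protein Thbs4 at 197 against 49.2 CPM and Sycn (syncollin, a granule protein) at 528 against 172 CPM. Ctse, an aspartic protease, was at 108 against 34.7 CPM and the troponin gene Tnni1 at 136 against 33.7 CPM. Of the 12 chemokine and cytokine genes tested, 4 were at least 2-fold higher (Cxcl1, Ccl20, Ccl28 and Il18), and 6 were at least 2-fold lower (Cxcl2, Ccl3, Ccl4, Ccl5, Ccl6 and Il1b). Among all genes tested, 0.856% were higher and 4.35% lower. Ccl3, Ccl4, Ccl5 and Il1b, under 10 CPM in cluster 10, were counted only through the other DSS cells, which include leukocytes. They could not come out higher. Cxcl2 was at 105 against 323 CPM, and against 56.6 CPM in the other epithelial clusters.

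**Figure D2:**
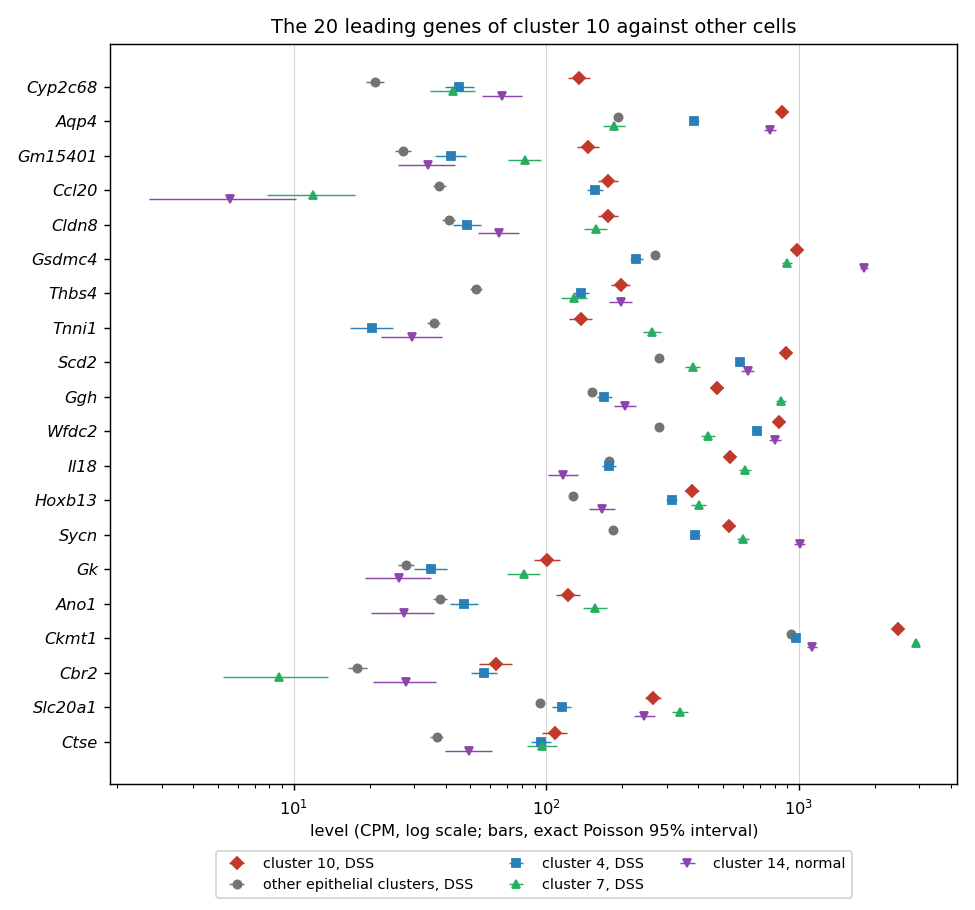
Level (horizontal axis, CPM, log scale) of the 20 genes with the largest ratio to the other DSS cells, in cluster 10, in the other epithelial clusters, in clusters 4 and 7 of the DSS library and in normal cluster 14, with exact Poisson 95% intervals as bars. Cluster 10 lies above the other epithelial clusters for each gene, while Gsdmc4 and Sycn were higher in normal cluster 14 and Tnni1, Ggh and Ckmt1, for example, were higher in cluster 7.

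Of the 15 genes with the smallest ratio to the other DSS cells, 9 mark leukocytes or enteroendocrine cells and 3 (Muc2, Spink4 and Reg4) are on the goblet list. Igkc, Igha and Jchain (antibody chains of plasma cells), S100a8, S100a9 and Retnlg (neutrophils), Ccl5 and Srgn (leukocytes) and Chgb (enteroendocrine cells) were at 0.736 to 10.7 CPM in the cluster and at 209 to 3037 CPM in the other DSS cells. Against the other epithelial clusters alone, the number of genes at least 2-fold lower was 233 instead of 351, and 64 instead of 69 were higher.

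Reg3b, a secreted antibacterial lectin, was 146 CPM in the cluster, 7336 CPM in the other DSS cells and 7832 CPM in the other epithelial clusters, a log2 ratio of -5.56 to the other DSS cells. Its relative Reg3g was at 37.5 against 1309 CPM, Reg4 at 1.47 against 212 CPM and Spink4, a goblet cell peptide, at 186 against 2856 CPM. Car1, the cytosolic carbonic anhydrase of colonocytes, was at 504 against 5339 CPM (log2 ratio -3.38) and Muc2 at 123 against 1331 CPM. Free RNA in the droplets has to be considered for these abundant transcripts. The leukocyte clusters of the same library held 404 CPM of Reg3b, 328 CPM of Car1, 157 CPM of Muc2 and 221 CPM of Spink4. Epithelial cells or doublets within those clusters may supply part of these levels, which was not tested. By CPM, Reg3b, Muc2 and Spink4 in cluster 10 were below these levels and Car1 was above. In UMIs per cell all 4 were above, with 3.84 of Reg3b, 13.3 of Car1, 3.24 of Muc2 and 4.91 of Spink4 in cluster 10 against 1.74, 1.42, 0.679 and 0.953 in the leukocyte clusters, whose cells are shallower. The Reg3b mean rests in large part on few cells, the highest with 89, 37, 34 and 34 UMIs. How much of these transcripts in cluster 10 is free RNA was not tested.

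Lists of cell states were described in the same way. None of the 16 genes of dissociation stress was 2-fold higher or lower than in the other DSS cells, and the same was true of 11 genes of the NF-kB and TNF response, 7 YAP/TAZ targets, 10 integrin and laminin genes, 13 genes of the unfolded protein response and 6 EGF family ligands and receptors. The list medians were between -0.16 and 0.10 on the log2 scale. With 0.856% of all genes higher and 4.35% lower, counts of 0 in lists of this length are near the share over all genes. Wound-associated epithelial genes were divided, with 0 of 15 at least 2-fold higher and 2 (Plaur and Ly6d) at least 2-fold lower, and a median of 0.03. Ly6d, under 10 CPM in cluster 10, was counted only through the other cells and could not come out higher. Some genes of this list were nevertheless well expressed, and those given next are members above the other DSS cells, each by less than 2-fold. Ly6a, the antigen SCA1, stood at 727 against 566 CPM in the other DSS cells, the EGF receptor ligands Areg at 712 against 522 CPM and Hbegf at 734 against 557 CPM, and Anxa1 at 427 against 268 CPM. The EGF family list ranked 3 of 19 clusters in summed level, at 1570 CPM, most of it Hbegf and Areg.

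Interferon response genes were low. Their summed level, 167 CPM over 18 genes, ranked 19 of 19 clusters in the DSS library, with clusters 22, 1 and 4 next at 224, 229 and 234 CPM. Of 13 tested, 5 were at least 2-fold lower than in the other DSS cells and 0 were higher, with a median log2 ratio of -0.79. Among all genes tested against those cells, 0.856% were higher and 4.35% lower. Of the 5, Isg15, Ifit1 and Ifi47 were under 10 CPM in cluster 10. They were counted only through the other cells and could not come out higher. Isg15, an interferon-induced ubiquitin-like protein, had 8 UMIs in 8 of 103 cells. Against DSS cluster 4, 1 of 6 tested (Cxcl10) was at least 2-fold lower and 0 were higher, with a median of -0.25, and the other 12 genes, Isg15 among them, were under 10 CPM in both clusters. Of the MHC class II presentation genes, 4 of 6 were at least 2-fold lower, with Cd74, the invariant chain, at 118 against 847 CPM. H2-Eb1, also lower, was under 10 CPM in cluster 10 and could not come out higher. The other DSS cells include the leukocyte clusters, which make these genes, and the other epithelial clusters had Cd74 at 163 CPM. Against normal cluster 14, described further on, the 3 genes of this list with at least 10 CPM in either cluster (H2-Aa, H2-Ab1 and Cd74) were at least 2-fold higher. Their median log2 ratio was 1.17, and 2.3% of all genes were higher. The 3 passed the filter only through cluster 10, which fixed their direction, so their count says nothing about the list. The levels of these genes in cluster 10 rest on few cells, since 5 of the 103 cells held 79.8% of the Cd74, 96.9% of the H2-Aa and 86.4% of the H2-Ab1 UMIs. H2-Aa was found in 6 cells and H2-Ab1 in 11. The list of inflammatory epithelial defence had 7 of 13 genes at least 2-fold lower, namely Reg3b, Reg3g, Lcn2, Saa1, Saa3, S100a8 and S100a9. S100a8 and S100a9 are also on the neutrophil list, and the comparison group holds leukocytes. Lcn2, Saa3, S100a8 and S100a9 were under 10 CPM in cluster 10, so they were counted only through that group and could not come out higher. Against DSS cluster 4, 1 of 12 was lower (Lcn2) and 1 higher (Saa1), with a median of -0.33, and Reg3b was at 146 and 143 CPM in clusters 10 and 4. Over all genes, 2.16% were at least 2-fold higher and 2.73% lower than in cluster 4, so a count of 1 says little about a list of this length.

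Within the DSS library, the cluster with the most similar profile was cluster 4 (230 cells), with a Spearman correlation of 0.926 across 8269 genes, followed by clusters 1 (0.923), 20 (0.913) and 7 (0.903). These correlations are over genes of the same library, are not replicates of anything, and the order of the first ranks is close. Cluster 20, with 30 DSS cells at a median of 4006 UMIs, also had high Aqp4 (519 CPM) and Scd2 (759 CPM). The 4 clusters differed in Hoxb13, a homeobox gene of the distal hindgut. This gene, at chromosome 11 from 96194316 to 96197447 on the plus strand, was at 377 CPM in cluster 10 and in 97 of its 103 cells, at 401 CPM in cluster 7, 313 in cluster 4 and 312 in cluster 20, and at 3.6 CPM in cluster 1 and 3.3 in cluster 6. The Hox comparison was chosen after values were seen.

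The levels of 7 other Hox genes were read in the same 6 clusters. Hoxa13 was at 36.8 CPM in cluster 10, between 17.9 and 40.4 CPM in clusters 4, 7 and 20, and at 1.27 and 1.19 CPM in clusters 1 and 6. Hoxd13 was at 20.6 CPM in cluster 10, between 20.4 and 23.9 CPM in clusters 4, 7 and 20, and at most 0.362 CPM in clusters 1 and 6. Hoxa9 was at 28.3 CPM in cluster 10, between 18.8 and 44.0 CPM in clusters 4, 7 and 20, and at 3.62 and 2.68 CPM in clusters 1 and 6. Hoxb6 and Hoxb8 ran the other way, at 0.736 and 0 CPM in cluster 10, at most 0.800 CPM in clusters 4, 7 and 20, and at 35.2 and 19.6 CPM in cluster 1 and 19.6 and 11.9 CPM in cluster 6. Hoxd10 was low throughout, between 3.31 and 7.80 CPM in the 4 clusters with Hoxb13 and at 0 in clusters 1 and 6, and Hoxd12 was at most 1.38 CPM in all 6. Among normal clusters of at least 20 cells Hoxb13 was highest in clusters 12 (330 CPM), 3 (187 CPM) and 14 (166 CPM).

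Clusters 4, 10 and 7, the larger clusters that share Hoxb13, were then set side by side. Colonocyte genes increased in this order, with 11 of 14 members lower in cluster 4 and higher in cluster 7 than in cluster 10 and summed levels of 5048, 13604 and 45850 CPM. Slc26a3, the chloride/bicarbonate exchanger of colonocytes, was at 7.60, 107 and 464 CPM, Car1 at 114, 504 and 1868 CPM, and the surface keratin Krt20 at 12.2, 80.9 and 1280 CPM. Car4 (11.6, 13.2 and 1182 CPM) and Aqp8 (7.80, 11.04 and 1212 CPM) instead differed little between clusters 4 and 10 and were high in cluster 7. Crypt base stem genes ran the other way in 9 of the 11 members with at least 10 CPM in any of the 3 clusters, with sums of 727, 193 and 71.5 CPM, and all 9 proliferation genes so measured decreased (563, 254 and 107 CPM). The summed levels of these 3 lists in cluster 10 lay between those of clusters 4 and 7. There is no share over all genes to set beside the counts of members, which are a description only. Smoc2 and Cd44, under 10 CPM in cluster 10, were counted only through cluster 4, which favours a decrease. Cluster 20, which also has Hoxb13, was left out of this order for its 30 cells, 22 of them under 10000 UMIs. Its sums were 14851 CPM for the colonocyte, 236 CPM for the crypt base stem and 716 CPM for the proliferating cell list. Whether its cells are those of cluster 10 at lower depth was not tested.

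Some genes did not follow this order and were highest in cluster 10. Aqp4 was at 385, 855 and 186 CPM in clusters 4, 10 and 7, Scd2 at 583, 885 and 380 CPM and Cyp2c68 at 45.2, 135 and 42.7 CPM. Ccl20 was shared with cluster 4 (155, 175 and 11.9 CPM), while Cldn8 (48.6, 175 and 156 CPM) and Gsdmc4 (227, 983 and 894 CPM) were shared with cluster 7. Over the 19 DSS clusters of at least 20 cells, cluster 10 ranked first for Aqp4, Scd2, Cyp2c68, Ccl20, Cldn8, Gsdmc4 and Thbs4. The wound-associated genes had no common order, with Ly6a, Lamb3 and Il1rn increasing from cluster 4 to 7, 5 genes decreasing, and Anxa1, Clu, Hbegf and Areg highest in cluster 10. Clu rested on few cells, with 145 UMIs in 26 of 103 cells and 79.3% of them in 10 cells.

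**Figure D3:**
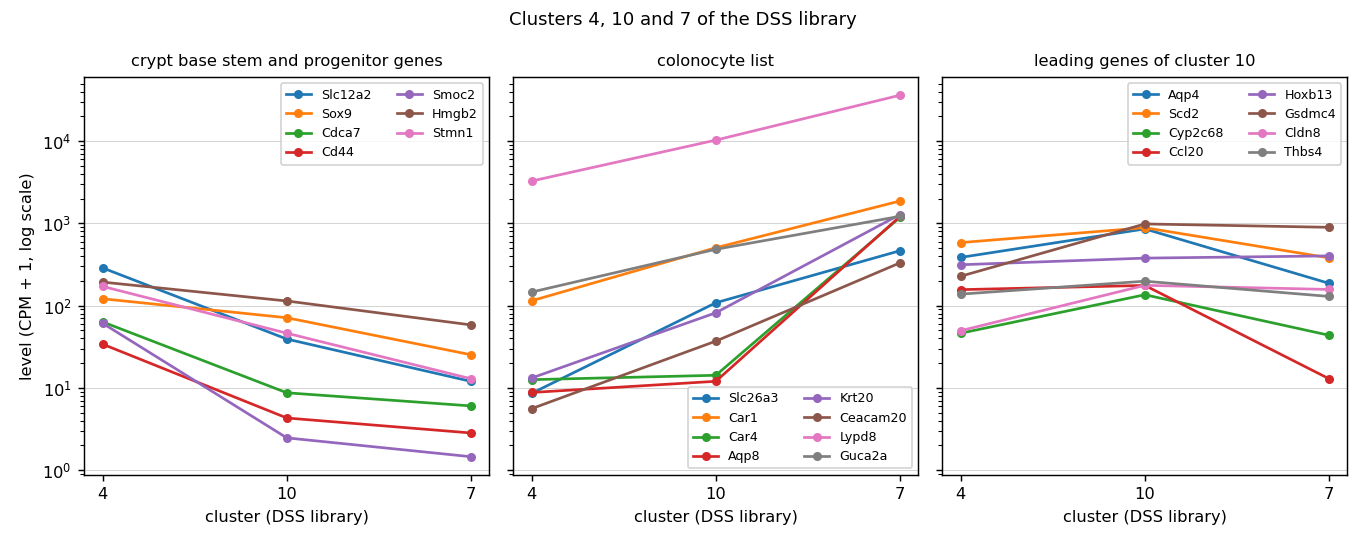
Levels (vertical axis, CPM + 1, log scale) of stem and progenitor genes, colonocyte genes and leading genes of cluster 10 in clusters 4, 10 and 7 of the DSS library. The first panel decreases and the second increases from cluster 4 to 7, while Aqp4, Scd2 and Cyp2c68 in the last panel peak in cluster 10.

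Against cluster 4 itself, 172 of 7953 genes (2.16%) were at least 2-fold higher in cluster 10 and 217 (2.73%) were at least 2-fold lower, with a median log2 ratio of -0.04 over all genes. These counts were 325 and 524 at a pseudocount of 1 CPM, and the lower genes numbered 117 among genes of at least 50 CPM and 361 without mitochondrial and ribosomal protein genes. The colonocyte list had 8 of 13 genes higher and 0 lower, with a median log2 ratio of 1.32, and 6 of 11 stem genes were lower. Of these 6, Ascl2, Smoc2, Axin2 and Cd44 were under 10 CPM in cluster 10. They were counted only through cluster 4 and could not come out higher. Slc26a3, under 10 CPM in cluster 4, was counted only through cluster 10 and could not come out lower. The largest ratios were those of Tgm3, a transglutaminase that cross-links surface proteins (184 against 5.20 CPM, log2 ratio 3.67), the sialyltransferase St3gal4 (209 against 19.6 CPM), Slc26a3 (107 against 7.60 CPM), Tnni1 (136 against 20.4 CPM) and the iron exporter ferroportin, Slc40a1 (159 against 26.0 CPM). The lowest were Ifitm3, an interferon-induced membrane protein (17.3 against 341 CPM, log2 ratio -3.68), Ttr (transthyretin, 18.0 against 250 CPM), Trf (transferrin, 23.9 against 208 CPM), the basolateral cotransporter Slc12a2 of secreting crypt cells (38.3 against 286 CPM) and the progenitor factor Sox4 (42.7 against 248 CPM). Notch and secretory fate genes had 4 of 9 members lower and 0 higher. Ion and water transport genes had 4 of 10 higher (Slc26a3, Scnn1a, Aqp4 and Car1) and 1 lower (Slc12a2).

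In the normal library, the most similar cluster was cluster 14 (77 cells, 6.80% of the kept normal cells), with a Spearman correlation of 0.916 across 7819 genes, against 0.891 for cluster 1 and 0.884 for cluster 3. Cluster 14 mirrored cluster 10 in origin, with 77 normal cells and 1 DSS cell, at a median of 24749 UMIs. Where a cluster comes almost wholly from 1 library, the cluster and the library cannot be told apart.

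The leading genes of cluster 10 were largely present in cluster 14. Aqp4 was at 855 CPM in cluster 10 and 766 CPM in cluster 14, Wfdc2 at 833 and 805 CPM, Thbs4 at 197 and 197 CPM, Slc20a1 at 264 and 244 CPM, and Scd2 at 885 and 626 CPM. Gsdmc4 was lower in cluster 10, at 983 against 1805 CPM, and so was Gsdmc2, at 316 against 751 CPM. Hoxb13 was higher, at 377 against 166 CPM. None of the 12 epithelial markers, 0 of 6 stem genes and 0 of 10 ion and water transport genes tested differed at least 2-fold between these clusters, which for lists of this length is near the share over all genes. Other lists had members past 2-fold. The goblet list had 3 of 10 higher (Tff3, Zg16 and Spink4) and 3 lower (Clca1, Retnlb and Ang4), the colonocyte list 2 of 13 higher (Ceacam20 and Krt20) and 1 lower (Fabp2), and the proliferation list 0 of 7 higher and 2 lower (Mcm5 and Mcm6). Retnlb and Ang4, under 10 CPM in cluster 10, were counted only through cluster 14 and could not come out higher. The 3 higher goblet genes rest on few cells, since 5 of the 103 cells held 88.2% of the Tff3, 62.4% of the Zg16 and 72.5% of the Spink4 UMIs, and 1 of the cells with most of them was within the top 5% of doublet scores. Zg16 and Spink4 were also below the leukocyte clusters of the library by CPM (186 against 237 and 186 against 221 CPM).

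The genes that did differ were 181 of 7855 (2.3%) at least 2-fold higher in cluster 10 and 156 (1.99%) at least 2-fold lower, with a median log2 ratio of -0.04 over all genes. These counts depend on the setting, with 366 and 388 at a pseudocount of 1 CPM, 288 and 268 after thinning, and 108 and 84 among genes of at least 50 CPM. Wfdc18, a small secreted whey acidic protein, was at 401 CPM (378 to 426) against 3.89 CPM, a log2 ratio of 4.89, with UMIs in 92 of 103 against 6.49% of cells, and in 80.0% against 3.33% after thinning. Ccl20 followed at 175 against 5.56 CPM (log2 ratio 3.57), and the neutrophil-attracting chemokine Cxcl2 at 105 against 2.78 CPM. Tgm3 was at 184 against 9.45 CPM and Plet1 at 191 against 12.8 CPM. Slpi, a protease inhibitor, was at 74.7 CPM against 0, at least 44.8-fold higher when cluster 14 is set at the limit of 3 counts. Clca4b was at 92.3 CPM against 1 UMI in cluster 14 (0.556 CPM, interval 0.0141 to 3.098). Reg3b was at 146 against 6.12 CPM, Cd74 at 118 against 3.89 CPM and the long noncoding RNA AW112010 at 330 against 33.4 CPM.

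By list, inflammatory epithelial defence had 6 of 9 genes at least 2-fold higher and 0 lower, with a median log2 ratio of 2.03. These were Reg3b, Reg3g, Saa1, Nos2 (the inducible nitric oxide synthase), Duox2 and its maturation factor Duoxa2, which together make hydrogen peroxide at the epithelial surface. Duox2 was at 118 against 14.5 CPM and Duoxa2 at 108 against 26.1 CPM. Chemokines and cytokines had 5 of 8 higher and 0 lower (Cxcl2, Ccl20, Ccl28, Tnf and Il18), with Il18 at 532 against 116 CPM, and 8 of the 18 members were tested. Over all genes, 2.3% were higher and 1.99% lower. Ccl20, Cxcl2 and Reg3b were under 10 CPM in cluster 14, so they were counted only through cluster 10 and could not come out lower. Of the wound-associated list, 3 of 14 were higher (Clu, which 26 of 103 cells held, Lamb3 and Il1rn) and 0 lower, while Ly6a was at 727 against 865 CPM. Reg3b in cluster 10, at 146 CPM and 3.84 UMIs per cell, was below the leukocyte clusters of the DSS library by CPM (404) and above them per cell (1.74), and the part of free RNA in it was not tested. The cells with most Reg3b held 89, 37, 34 and 34 UMIs, so both values rest in large part on few cells. Cd74 is made by leukocytes themselves, so those clusters give no such measure for it. Wfdc18 (21.3 CPM in the leukocyte clusters), Ccl20 (1.04 CPM) and Duox2 (8.33 CPM) were higher in cluster 10 on both scales.

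Interferon response genes had 8 of 10 members at least 2-fold lower than in cluster 14 and 0 higher, with a median log2 ratio of -1.37. Isg15 was at 2.94 against 166 CPM and Irf7, the master regulator of the type I interferon response, at 19.5 against 166 CPM. Isg15, Ifit1, Stat2 and Zbp1, all under 10 CPM in cluster 10, were counted only through cluster 14 and could not come out higher. Among all genes tested, 2.3% were at least 2-fold higher and 1.99% lower. The largest single differences were Ifi27l2a (1.47 against 462 CPM), Ifitm3 (17.3 against 389 CPM) and Bst2, or tetherin (28.3 against 344 CPM), all interferon-induced. Xist had 0 UMIs against 398 CPM, at least 360-fold lower at the limit of 3 counts. The dissociation stress list had 4 of 16 genes at least 2-fold lower and 0 higher, with a median log2 ratio of -0.29. The 4 encode heat shock proteins, Hspa1b at 64.4 against 708 CPM, Hspa1a at 64.4 against 482 CPM, Hsp90aa1 at 309 against 1197 CPM and Hspb1 at 14.7 against 85.6 CPM. Hsph1, outside that list, was at 43.4 against 288 CPM. Hspa1a and Hspa1b are near-identical copies whose reads cannot be assigned with certainty. Fabp2, a fatty acid binding protein, was at 193 against 1288 CPM and the sulfotransferase Sult1a1 at 89.0 against 449 CPM.

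**Figure D4:**
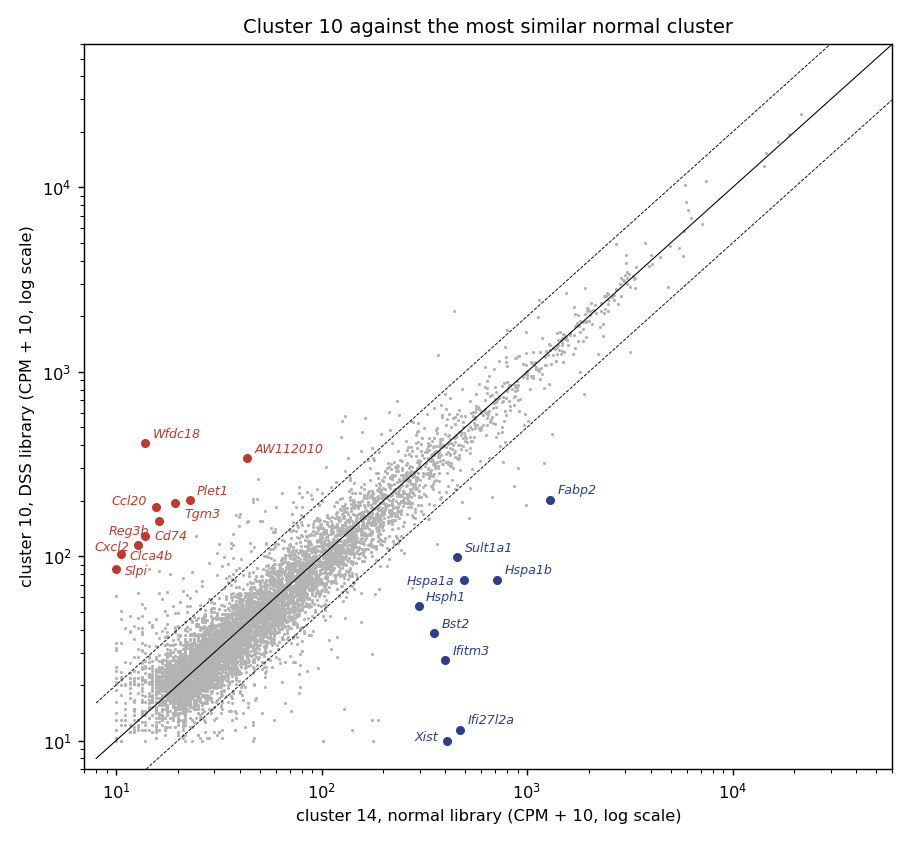
Level of each gene in the 103 DSS cells of cluster 10 (vertical axis) against the 77 normal cells of cluster 14 (horizontal axis), both CPM + 10 on log scales, with the line of equality and dashed lines at 2-fold. The named genes above (red) include Wfdc18 and Ccl20, and those below (blue) include Xist, Ifi27l2a and Hspa1b.

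Clusters present in both libraries show how far the same genes differ between the libraries in other epithelial cells. The DSS to normal log2 ratio was taken within clusters 1, 2, 5, 6 and 13, a comparison added after values were seen. Hspa1b had ratios of -3.87 to -3.20 in these 5 clusters, Hsph1 of -2.29 to -1.87, Ifi27l2a of -3.39 to -1.24, Isg15 of -2.18 to -0.86 and Bst2 of -1.78 to -0.89, so these 5 genes were lower in the DSS cells of those clusters too. Duox2 (0.93 to 2.38) and AW112010 (0.95 to 2.00) were likewise higher in the DSS cells of each of the 5, and Wfdc18 had ratios of 0.70 to 4.42. Il18 had ratios of 1.20 to 1.43 in 4 of them and -0.36 in cluster 13. Other genes had no common shift, with Tgm3 at -1.32 to 0.25, Ifitm3 at -0.67 to 0.22 and Ccl20 at -0.01 to 1.95.

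Over all genes, of the 181 higher in cluster 10 than in cluster 14, between 24 (cluster 1) and 51 (cluster 5) were also at least 2-fold higher in the DSS cells of these clusters, where 0.572% and 1.34% of all genes were. Of the 156 lower genes, between 20 (cluster 6) and 54 (cluster 13) were also at least 2-fold lower, where 0.992% and 1.68% of all genes were. In direction alone, between 138 and 172 of the 181 higher genes and between 128 and 139 of the 156 lower genes differed the same way between the libraries in each of the 5 clusters. That is 76.2 to 95% of the higher genes, where 43.3 to 51.4% of all genes tested in these clusters were higher in the DSS cells, and 82.1 to 89.1% of the lower genes, where 48.6 to 56.7% were lower. These comparisons use the same 2 libraries as the one between clusters 10 and 14, and their part in it was not tested.

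The 6 normal cells of cluster 10 allow the same genes to be read with the cluster number held fixed. Hoxb13 had 17, 14, 18, 9, 9 and 11 UMIs in them (486 CPM), Gsdmc4 had 15 to 59 UMIs, and Cldn8 had 1 to 8. Tgm3, high in cluster 10 against cluster 14, was present in 6 of 6, with 7, 24, 22, 23, 6 and 1 UMIs (517 CPM). Wfdc18 had 2 UMIs over the 6 cells, Ccl20 had 1, and Cxcl2, Slpi, Clca4b and Plet1 had 0. Ifi27l2a and Isg15 had 1 UMI each, and Hspa1b had 56 (349 CPM). So Tgm3, Ifi27l2a and Isg15 were on the side of the DSS cells of the cluster, as far as 6 cells show. Wfdc18, Ccl20 and Plet1 were on the side of cluster 14. The 6 cells were placed in cluster 10 by the genes of these same cells, and the genes were chosen for differing between clusters 10 and 14. Likeness to the DSS cells may be set in part by that placement, so these values cannot separate cluster from library. Over the 108 higher genes with at least 50 CPM in either cluster, the normal cells were nearer to the DSS cells of cluster 10 for 51 and nearer to cluster 14 for 57, and over the 84 lower genes for 47 and 37.

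The genes of the cluster differed in how many of its 103 DSS cells held them. Lypd8, Gsdmc4, Aqp4, Scd2, Hoxb13, Hbegf, Ly6a and Areg each had a UMI in at least 95 cells. Wfdc18 was found in 92 cells, Cldn8 in 87, Sycn in 77 and Tgm3 in 61. Ccl20 was found in 56 cells, Tnf in 52, Cxcl1 in 46 and Cxcl2 in 37, and the 10 cells with most Ccl20 held 56.1% of its UMIs. Of these 4 inflammatory genes, 18 cells held none, 29 held 1, 21 held 2, 20 held 3 and 15 held all 4, counts that depend on the depth of each cell.

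A few cells carried most of the transcripts of the goblet genes Muc2 and Tff3 and of Cd74. The 5 cells with most Muc2 held 75.5% of its UMIs, and for Tff3, a goblet cell peptide, this share was 88.2%. A cell with 100041 UMIs, within the top 5% of doublet scores, had 150 Muc2 and 115 Tff3 UMIs, and another with 58601 UMIs had 47 and 86. Cd74 was found in 30 cells, but 5 of them held 79.8% of its UMIs, and the 4 highest had 72, 63, 55 and 49 UMIs, with H2-Aa, H2-Ab1 and H2-Eb1 in each and 0 UMIs of Ptprc and of the B cell gene Cd79a. These cells were looked at after values were seen, and whether they make these transcripts themselves was not tested. Without the 10 cells with most UMIs, the numbers of genes 2-fold higher and lower than the other DSS cells were 72 and 376.

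**Figure D5:**
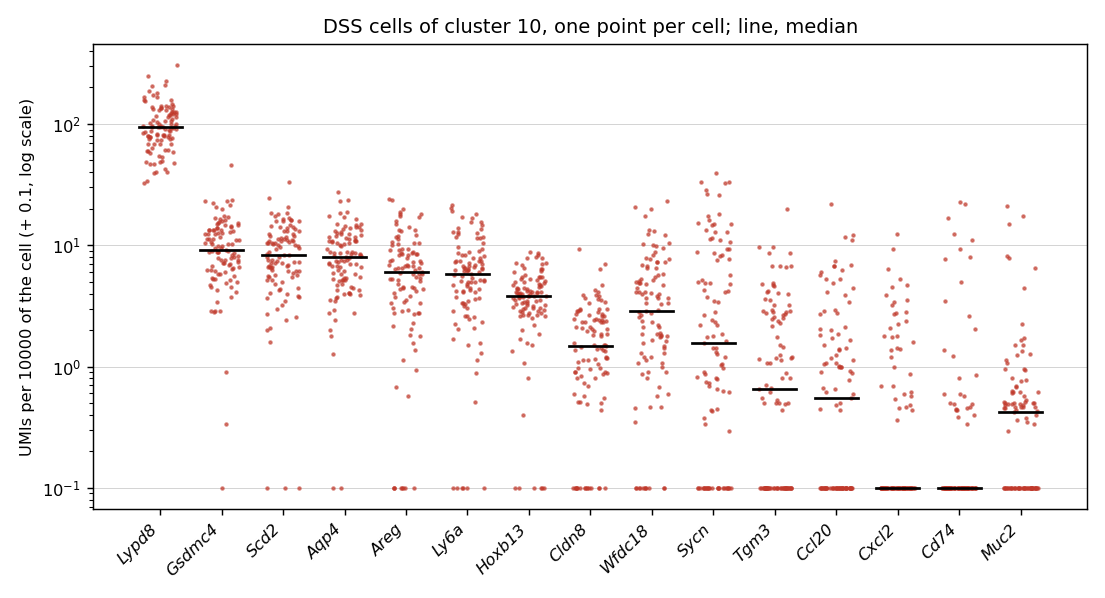
UMIs per 10000 UMIs of the cell (vertical axis, 0.1 added, log scale) for 15 genes in the 103 DSS cells of cluster 10, 1 point per cell, with the median as a line and points at the bottom for cells without a UMI. Most cells form a single band for each of Lypd8 to Hoxb13, with a few cells at the bottom for some of these genes. Tgm3, Ccl20, Cxcl2 and Cd74 instead have many cells without a UMI.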

How the data were processed

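The authors counted the reads with Cell Ranger 3.0.0 against mm10 and clustered the cells with Seurat 3.1.4, per the submitters' processing notes. The deposited values used here are raw UMI counts per gene and kept cell over 23810 genes, with the authors' cluster annotation. Unmapped columns numbered 0.

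UMIs were summed per cluster and library and expressed as CPM (Python 3.11.15, scipy 1.17.1). Genes of at least 10 CPM in either group were called at 2-fold with 10 CPM added. Intervals are exact Poisson or Clopper-Pearson 95% intervals. With 1 library per colonic group, no p-value was computed. Doublets stayed in, and an alternative left out the top 5% of Scrublet scores (scanpy 1.11.5). Scripts were tested on simulated data. Coordinates are from GENCODE M21 (GRCm38).

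Named genes were the 20 with the largest and 15 with the smallest ratio to the other DSS cells (in at least 10% of cells and at 50 CPM or more for higher genes, 200 CPM or more for lower genes), 10 and 10 against normal cluster 14, 5 and 5 against DSS cluster 4, and marker list members. Some genes that meet these rules are not reported here. The sex-linked and Hox genes, Slc5a8, Slc6a14, Gsdmc2 and Gsdmc3 were added after values were seen. The cluster, lists and rules were chosen with earlier results of these data known.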

Additional observations from a re-analysis of the deposited data

How the results depend on the processing

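No paired analysis was possible because each colonic group is 1 library. Most counts of genes past 2-fold stayed within 1.5 times, and the cause of those that moved was not tested beyond the setting itself. With a pseudocount of 1 CPM, 136 genes were higher and 566 lower than in the other DSS cells, 366 and 388 than in normal cluster 14, and 325 and 524 than in DSS cluster 4. Among genes of at least 50 CPM, 122 were lower than in the other DSS cells, 108 higher and 84 lower than in cluster 14, and 117 lower than in cluster 4. With the mean of per-cell CPM, 119 were higher and 774 lower than in the other DSS cells, and 251 lower than in cluster 14. Cells thinned to 10000 UMIs gave 288 higher and 268 lower than in cluster 14. Without mitochondrial and ribosomal protein genes, 361 were lower than in cluster 4. Against the other epithelial clusters, an alternative added after seeing the data, 233 were lower. The other added alternatives, all colonic cells together and without the 10 deepest cells, kept the counts within 1.5 times. A count without the filter equals the main count by construction. The share of DSS cells in the cluster was 6.79% (95 of the 1400 kept cells within the stated limits) and 6.46% among cells without Ptprc. The most similar DSS cluster became cluster 20 (0.922) at 50 CPM and cluster 1 (0.913) with per-cell means, and the normal one stayed cluster 14 in all 4 alternatives. Of 718 values for 65 named gene ratios, 179 moved, 0 reversed, and 2 went under 2-fold, both with all colonic cells together. With 1 library per group, every value describes these libraries only, and no depth makes up for the missing replicates.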

Other observations

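The leading genes of the cluster were read in the 8 small intestinal organoid libraries as well. Hoxb13 was at 0 in 5 of the 8 libraries and at most 1.04 CPM, Hoxa13 was at 0 in 6, and Tgm3 was at 0 in 4. Gsdmc4 reached at most 1.44 CPM. The 3 libraries with a Hoxb13 UMI were the 3 of Hyper-organoids. Aqp4 was at 83.6, 83.1 and 79.6 CPM in the ENR-organoids, 93.3 and 83.8 CPM in the -VE-organoids and 81.5, 43.0 and 51.1 CPM in the Hyper-organoids. Lypd8 was at 612, 687 and 673 CPM in the ENR-organoids, 416 and 361 CPM in the -VE-organoids and 231, 320 and 331 CPM in the Hyper-organoids. Ckmt1 was at 216, 240 and 236 CPM, 169 and 168 CPM, and 103, 120 and 149 CPM in the same order. Other leading genes were highest in the Hyper-organoids. Wfdc2 was at 0.504, 0.0325 and 0.135 CPM, 2.44 and 0.0588 CPM, and 23.7, 30.5 and 32.0 CPM. Ggh was at 12.9, 15.6 and 13.9 CPM, 20.2 and 20.2 CPM, and 72.4, 82.0 and 68.3 CPM. Gk and Cldn8 were also highest there, at up to 10.8 and 4.55 CPM. Scd2 ranged from 405 to 681 CPM over all 8, and both ends were Hyper-organoids. Hoxd13, Thbs4, Ctse, Cbr2, Gm15401 and Tnni1 were also at most 0.620 CPM in each of the 8 libraries. The organoids differ from the colonic crypts in organ, culture and library, which cannot be told apart.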
